A study of Mus musculus with 9 samples.

Results

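The 37 Hox genes that have their own probe set on the array were compared between mouse embryonic stem (ES) cells of the wild type (WT) and cells with Dgcr8 knocked out (Dgcr8 KO) or Dicer1 knocked out (Dicer KO). They were chosen by name, as the transcript clusters whose single gene symbol is Hox followed by a cluster letter from a to d and a number, and they make up 37 of the 22999 annotated transcript clusters counted and of the 35557 on the array. The Hoxa cluster gave 10 of them and the Hoxb, Hoxc and Hoxd clusters 9 each, on chromosomes 6, 11, 15 and 2. Hoxb8 shares a probe set with Hoxb7 and was left out by the rule.

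RNA was measured on 9 Affymetrix mouse gene arrays, 3 for each genotype. The WT cells are the v6.5 line, the Dgcr8 KO cells carry a deletion of exon 3 of Dgcr8, and the Dicer KO cells lack a working Dicer1 gene. No more than 1 line is stated for each genotype, no treatment is stated for any group, and the parents and culture of the KO lines are described elsewhere, so that differences between lines cannot be told apart from effects of the mutations. Whether feeder cells were present is not given in the sources used here. The methods name 3 biological replicates and the sample records name plates in triplicate, and the p-values may therefore measure only the technical spread between cultures. Dgcr8 lay between 9.76 and 9.82 on the log2 scale in WT, between 8.74 and 8.96 in Dgcr8 KO and between 9.98 and 9.99 in Dicer KO, and Dicer1 lay between 10.18 and 10.23, between 10.39 and 10.47 and between 8.32 and 8.43, so each mutant was lowest in the gene that its label names. The 13 ES cell markers examined had mean levels from 9.03 for Klf4 in WT to 13.6 for Dppa5a in Dicer KO.

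Hox genes encode homeodomain transcription factors that tell cells of the embryo where they lie along the head-to-tail axis. They sit in 4 clusters, and genes at the same position in different clusters are paralogues and carry the same number, with low numbers acting towards the head and high numbers towards the tail and the ends of the limbs. In ES cells the clusters are held silent by Polycomb complexes, which place repressive marks on histones, and the genes are switched on in order during differentiation, for instance by retinoic acid. Dgcr8 recognises primary miRNA transcripts and guides the nuclease Drosha to free their hairpins, the pair forming the Microprocessor, and Dicer then trims these hairpins to mature miRNAs. A change in both mutants is therefore shared by cells without canonical miRNAs, and the study asked which mRNAs change in Dgcr8 KO alone.

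The Hox genes were dim in every genotype. Their values ran from 4.14 to 7.34 on the log2 scale over all arrays, and 36 of the 37 had a mean level below the median of all transcripts counted, 6.92. The median of their mean levels was 5.73. The ES cell markers above lay higher than every Hox value, but signals of different probe sets cannot be ranked as amounts of RNA, and the deposited table gives no background by which to say which of these genes is expressed. In 22 of the 37 genes a value is repeated to the last digit on at least 2 arrays. Hoxa13 has the same value, 5.98, on all 3 Dgcr8 KO arrays, so that its SD there is 0.

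**Figure D1:**
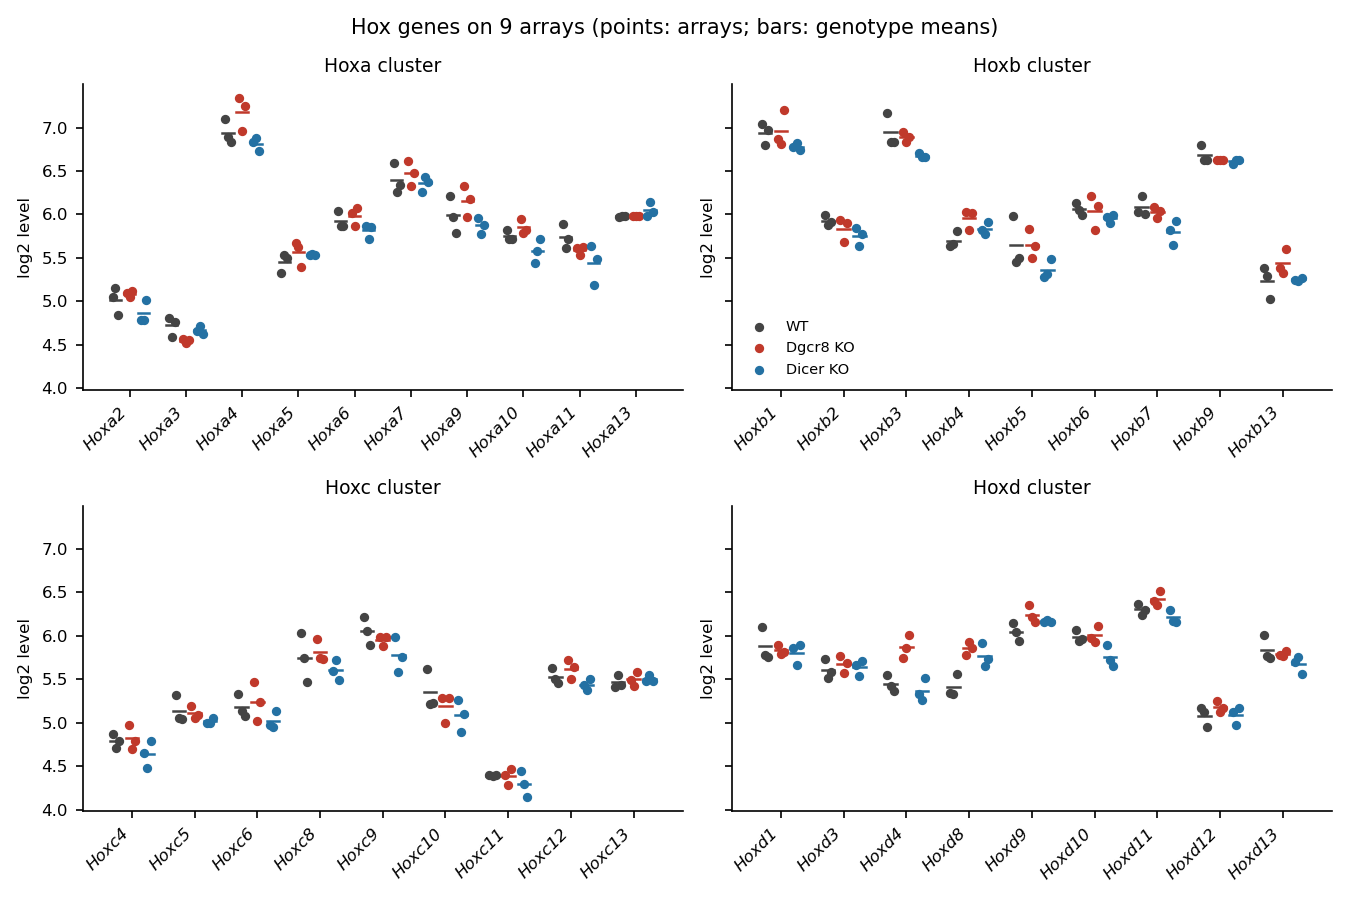
Log2 level of each of the 37 Hox genes on the 9 arrays, in 4 panels by cluster and in order of paralogue number, with WT in grey, Dgcr8 KO in red and Dicer KO in blue, a point for each array and a bar for each genotype mean. The values lie between 4.14 and 7.34, and within each gene the genotypes lie close together.

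Few Hox genes differed between the genotypes, and the differences were small. In Dgcr8 KO relative to WT, 3 of the 37 were higher and 0 were lower by limma at an adjusted p under 0.05, or 8.11% and 0%, against 15.7% higher and 17.3% lower of all transcripts counted. Among the 9408 other transcripts within the range of the Hox genes' mean levels, a range set after the values were seen, 7.65% were higher and 6.74% lower. In Dicer KO relative to WT, 1 Hox gene was higher and 3 were lower, against 17.8% and 19.1% of all transcripts and 6.94% and 13.2% at the same range of levels. Between the mutants, 5 were higher in Dgcr8 KO cells than in Dicer KO and 0 were lower, against 11.2% and 13.4% of all transcripts and 9.41% and 4.12% at the same range of levels. In all, 9 genes passed the threshold in at least 1 comparison and 28 in none. None reached 1.5-fold, and over all members and comparisons the 95% intervals of the log2 ratios lay between -0.60 and 0.71. As RNA was measured in bulk, more cells with a transcript and more transcript per cell cannot be told apart.

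Hoxd4, whose product helps to pattern the hindbrain and neck, was higher in Dgcr8 KO cells than in both other genotypes. Its log2 level was 5.55, 5.42 and 5.36 in WT, 5.75, 5.86 and 6.005 in the Dgcr8 mutant and 5.33, 5.26 and 5.51 in the Dicer mutant. Every Dgcr8 KO array lay above every other array, and the WT and Dicer KO arrays overlapped. By limma the log2 ratio of Dgcr8 KO to WT was 0.42 (standard error, SE, 0.0889, adjusted p = 0.00458), 1.34-fold, and that of Dgcr8 KO to Dicer KO was 0.50 (adjusted p = 0.00289), 1.42-fold. The ratio of Dicer KO to WT was -0.08, with a 95% interval from -0.28 to 0.12. Hoxd4 is the only 1 of the 37 higher in Dgcr8 KO cells than in both, a rule met by 4.75% of all transcripts counted. None was lower in Dgcr8 KO cells than in both (5.15% of all) or higher in Dicer KO cells than in both (8.19%). Both calls of Hoxd4 were kept when any single array was left out, and without WT replicate 1 or Dgcr8 KO replicate 2 the number of Hox genes higher in Dgcr8 KO cells than in both was 2.

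Hoxd8, which acts in the trunk, was higher in both mutants. Its log2 level was 5.35, 5.33 and 5.56 in WT, 5.78, 5.93 and 5.86 in the Dgcr8 mutant and 5.92, 5.65 and 5.73 in the Dicer mutant. All 6 mutant arrays lay above the 3 WT arrays, of which replicate 3 was the highest, and the mutants overlapped each other. The log2 ratio to WT was 0.44 (SE 0.0866, adjusted p = 0.00303) for Dgcr8 KO and 0.35 (adjusted p = 0.0101) for Dicer KO by limma, and the difference between the mutants was 0.09, with a 95% interval from -0.10 to 0.29. Both calls were kept when any single array was left out. Both comparisons use the same WT arrays, so the pair of calls is not independent.

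Hoxd8 and Hoxd4 are the called Hox genes that kept their calls without any single array, and the sequence before each start site is shown to place them in the cluster. The 250 bases before the start are taken from RefSeq (GRCm38.p6), both on the plus strand, at chr2:74721728-74721977 for Hoxd4 and at chr2:74704365-74704614 for Hoxd8. Capitals mark each CG pair, the site of DNA methylation and of CpG islands, where Polycomb complexes often bind.
Hoxd4: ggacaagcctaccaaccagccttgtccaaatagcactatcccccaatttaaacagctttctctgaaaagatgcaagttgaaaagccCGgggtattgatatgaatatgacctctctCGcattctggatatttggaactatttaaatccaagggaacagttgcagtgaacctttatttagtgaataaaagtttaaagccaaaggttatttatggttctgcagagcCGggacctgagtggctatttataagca
Hoxd8: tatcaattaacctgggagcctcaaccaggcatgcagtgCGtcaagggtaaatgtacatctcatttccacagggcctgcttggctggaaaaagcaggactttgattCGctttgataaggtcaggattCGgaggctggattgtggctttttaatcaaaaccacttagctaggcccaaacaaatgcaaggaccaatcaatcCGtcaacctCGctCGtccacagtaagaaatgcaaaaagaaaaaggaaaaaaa
In the full window, which adds 50 bases after the start, Hoxd4 has a GC content of 39.7% and 4 CG pairs, and Hoxd8 has 46.7% and 6. The window was found for 21 of the 37 genes, which have 23 start sites between them. Over these 23 the GC content ran from 39.7% to 81.0% with a median of 58.0%, and the median of all 32851 RefSeq windows was 52.7%. Hoxd4 has the lowest GC content of the 23. A ratio of observed to expected CG pairs of at least 0.6 was found in 11 of the 23, 47.8%, and in 35.8% of all windows. The letters TATAAA, searched on both strands, occur in 3 of the 23, those of Hoxd4, Hoxd13 and one of the start sites of Hoxa10, or 13.04%, against 13.6% of all windows.

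Hoxb4, known for its part in the growth of blood stem cells, was the third gene higher in Dgcr8 KO cells than in WT. Its log2 level was 5.64, 5.66 and 5.80 in WT, 6.03, 5.82 and 6.02 in the Dgcr8 mutant and 5.82, 5.78 and 5.91 in the Dicer mutant. The Dgcr8 KO arrays lay above the WT arrays by a narrow margin, and the Dicer KO arrays overlapped both. The log2 ratio of Dgcr8 KO to WT was 0.26 (SE 0.0734, adjusted p = 0.0234) by limma, and that of Dicer KO was 0.14 (adjusted p = 0.185). The call was lost when WT replicate 1 or 2 or Dgcr8 KO replicate 1 or 3 was left out, with adjusted p from 0.0669 to 0.0865, and by SAM and in a fit of the 2 genotypes only. The largest ratios in this comparison that missed the threshold were those of Hoxa4, 0.24 (adjusted p = 0.115), and Hoxb13, 0.21 (adjusted p = 0.151).

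**Figure D2:**
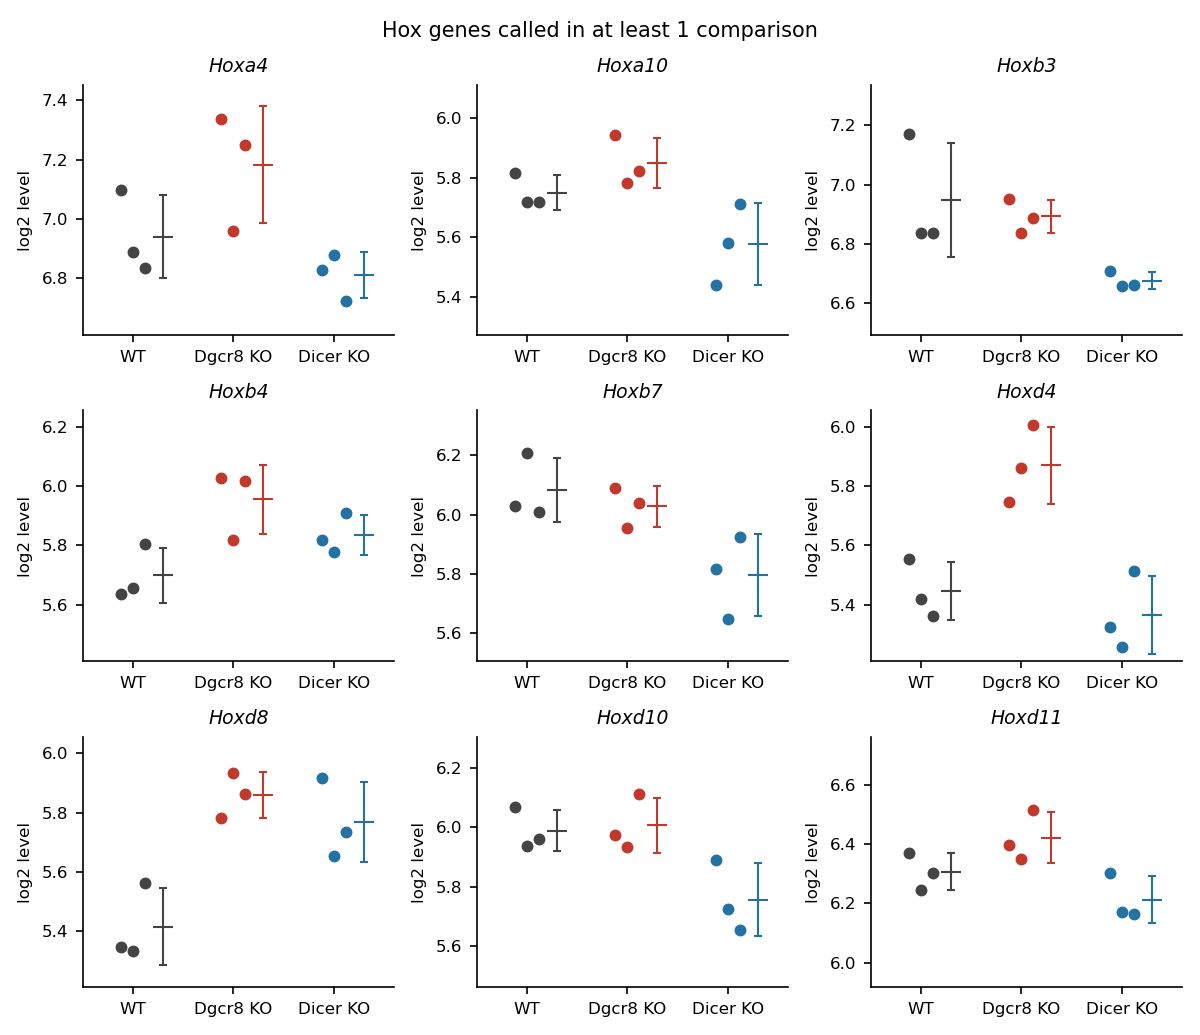
Log2 level on each of the 9 arrays of the 9 Hox genes that passed the threshold in at least 1 comparison, with a point for each array and, to its right, the mean and SD of the genotype. All panels span the same range of log2 units and do not start at 0, and Hoxd4 stands highest in Dgcr8 KO while Hoxd8 stands higher in both mutants than in WT.

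The 3 genes lower in Dicer KO cells than in WT were Hoxb7, Hoxb3 and Hoxd10. Hoxb7, a trunk gene, measured 6.03, 6.21 and 6.01 in WT, 6.09, 5.95 and 6.04 in the Dgcr8 mutant and 5.82, 5.65 and 5.92 in the Dicer mutant. Its Dicer KO arrays lay below all others, and the log2 ratio of Dicer KO to WT was -0.29 (SE 0.082, adjusted p = 0.0214) by limma. The probe set that Hoxb7 shares with Hoxb8 had a log2 ratio of -0.07 in the same comparison and was not called, with a 95% interval from -0.35 to 0.20, and the difference between the probe sets was not tested. Hoxb3, which acts in the hindbrain and pharyngeal arches, measured 7.17, 6.84 and 6.84 in WT, 6.95, 6.84 and 6.89 in the Dgcr8 mutant and 6.71, 6.66 and 6.66 in the Dicer mutant. WT replicate 1 was well above the other WT arrays, the Dicer KO arrays lay below all others, and the log2 ratio of Dicer KO to WT was -0.27 (SE 0.0865, adjusted p = 0.0336). The call of Hoxb7 was lost without WT replicate 2, Dicer KO replicate 1 or Dicer KO replicate 2 (adjusted p from 0.0508 to 0.077) and under cyclic loess. That of Hoxb3 was lost without any one of the Dicer KO arrays (adjusted p from 0.0654 to 0.091), under quantile normalization, cyclic loess and median centring, by SAM, in a fit of the 2 genotypes only and over all 35557 clusters. The number of Hox genes lower in Dicer KO cells than in WT was 1 without WT replicate 2 and 0 without Dicer KO replicate 2.

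Hoxd10, which patterns the lumbar spinal cord and the limb, was lower in Dicer KO cells than in both other genotypes, a rule that only this Hox gene and 5.66% of all transcripts met. Its log2 level was 6.07, 5.94 and 5.96 in WT, 5.97, 5.93 and 6.11 in the Dgcr8 mutant and 5.89, 5.72 and 5.65 in the Dicer mutant. The Dicer KO arrays were the lowest, with replicate 1 close to the others, and WT and Dgcr8 KO overlapped. By limma the log2 ratio was -0.23 (SE 0.0752, adjusted p = 0.0372) for Dicer KO to WT and 0.25 (adjusted p = 0.0384) for Dgcr8 KO to Dicer KO. Each of these calls was lost for 6 of the 9 arrays left out, with adjusted p up to 0.131, and under quantile normalization, cyclic loess and median centring. The arrays were WT replicates 2 and 3, Dgcr8 KO replicate 1 and Dicer KO replicates 2 and 3 in both, with WT replicate 1 in the first and Dgcr8 KO replicate 3 in the second. The rule was met by 0 Hox genes without WT replicate 2 or 3, Dgcr8 KO replicate 1 or 3 or Dicer KO replicate 2, and by 2 without Dicer KO replicate 3. Under those scalings the number of Hox genes lower in Dicer KO cells than in WT was 1, 0 and 1. Relative to WT, the largest ratios in Dicer KO that missed the threshold were those of Hoxa11, -0.30 (adjusted p = 0.063), and Hoxc9, -0.28 (adjusted p = 0.0704).

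Between the mutants, the other genes higher in Dgcr8 KO were Hoxa4, Hoxa10 and Hoxd11. Hoxa4, a gene of the neck region, measured 7.10, 6.89 and 6.83 in WT, 7.34, 6.96 and 7.25 in the Dgcr8 mutant and 6.83, 6.88 and 6.72 in the Dicer mutant, a log2 ratio of 0.37 (SE 0.104, adjusted p = 0.0292) between the mutants by limma. Hoxa10, needed for the lumbar spine and the uterus, measured 5.82, 5.72 and 5.72 in WT, 5.94, 5.78 and 5.82 in the Dgcr8 mutant and 5.44, 5.58 and 5.71 in the Dicer mutant, a log2 ratio of 0.27 (SE 0.0762, adjusted p = 0.0284). Hoxd11, which shapes the forearm, measured 6.37, 6.25 and 6.30 in WT, 6.40, 6.35 and 6.52 in the Dgcr8 mutant and 6.30, 6.17 and 6.16 in the Dicer mutant, a log2 ratio of 0.21 (SE 0.0635, adjusted p = 0.0401). In all 3 genes the arrays of the mutants did not overlap, the WT mean lay between theirs, and no mutant differed from WT past the threshold. The 2 largest ratios that missed the threshold were those of Hoxb5, 0.29 (adjusted p = 0.171), and Hoxa9, 0.29 (adjusted p = 0.113). Of the 5 genes, only Hoxd4 still passed when Dgcr8 KO replicate 1, Dgcr8 KO replicate 3 or Dicer KO replicate 2 was left out, the count falling to 1 each time, and it was 3 without WT replicate 3 or Dicer KO replicate 1. The call of Hoxd11 was also lost under quantile normalization, cyclic loess, median centring and limma-trend, that of Hoxa10 under median centring, both in a fit of the 2 genotypes only, and those of Hoxa4, Hoxa10 and Hoxd11 over all 35557 clusters.

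By cluster, the Hoxd genes held 7 of the 12 calls over the 3 comparisons and the Hoxc genes none. Hoxd4, Hoxd8 and Hoxd10 gave 2 of these calls each and Hoxd11 gave 1, and the comparisons share arrays. Hoxd calls between the mutants fell from 3 to 1 under quantile normalization, cyclic loess and median centring. The Hoxd call lower in Dicer KO than WT was lost under each. Hoxd calls higher in Dgcr8 KO than WT rose from 2 to 3 under quantile normalization and cyclic loess. Those higher in Dicer KO than WT rose from 1 to 2 under cyclic loess. The median log2 ratio of Dgcr8 KO to WT was 0.08 over Hoxa, -0.02 over Hoxb, 0.03 over Hoxc and 0.10 over Hoxd, against -0.01 over all transcripts. That of Dicer KO to WT was -0.11, -0.16, -0.14 and -0.07, against -0.06, and for Hoxd it turned to 0.01 under cyclic loess. By position, the 3 genes higher in Dgcr8 KO cells than in WT belong to paralogue groups 4 and 8, and none belongs to the 7 genes of groups 1 to 3 or the 16 of groups 9 to 13. This split depends on the scaling. In this comparison 1 gene of groups 9 to 13 was higher under quantile normalization and under cyclic loess. Of groups 1 to 3, 1 gene was lower under cyclic loess and under median centring. Paralogue group 4, with a gene in each cluster and picked out after its values were seen, had ratios of Dgcr8 KO to WT of 0.24 for Hoxa4, 0.26 for Hoxb4, 0.03 for Hoxc4 and 0.42 for Hoxd4. Differences between clusters or positions were not tested.

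Between the mutants, 34 of the 37 ratios (91.9%) were above 0. This stands against 58.3% of all transcripts and 73.1% of the other transcripts at the same range of levels. The median was 0.15, against 0.03 and 0.08. Under quantile normalization, cyclic loess and median centring 30 of 37 were above 0, with medians of 0.10, 0.08 and 0.10. Relative to WT, 24 of 37 (64.9%) were above 0 in Dgcr8 KO (median 0.04), against 47.6% of all transcripts and 48.0% at the same range. In Dicer KO 9 of 37 (24.3%) were above 0, against 37.3% of all transcripts and 26.4% at the same range of levels. The median there was -0.11, against -0.06 and -0.09. The comparisons with WT share the WT arrays.

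**Figure D3:**
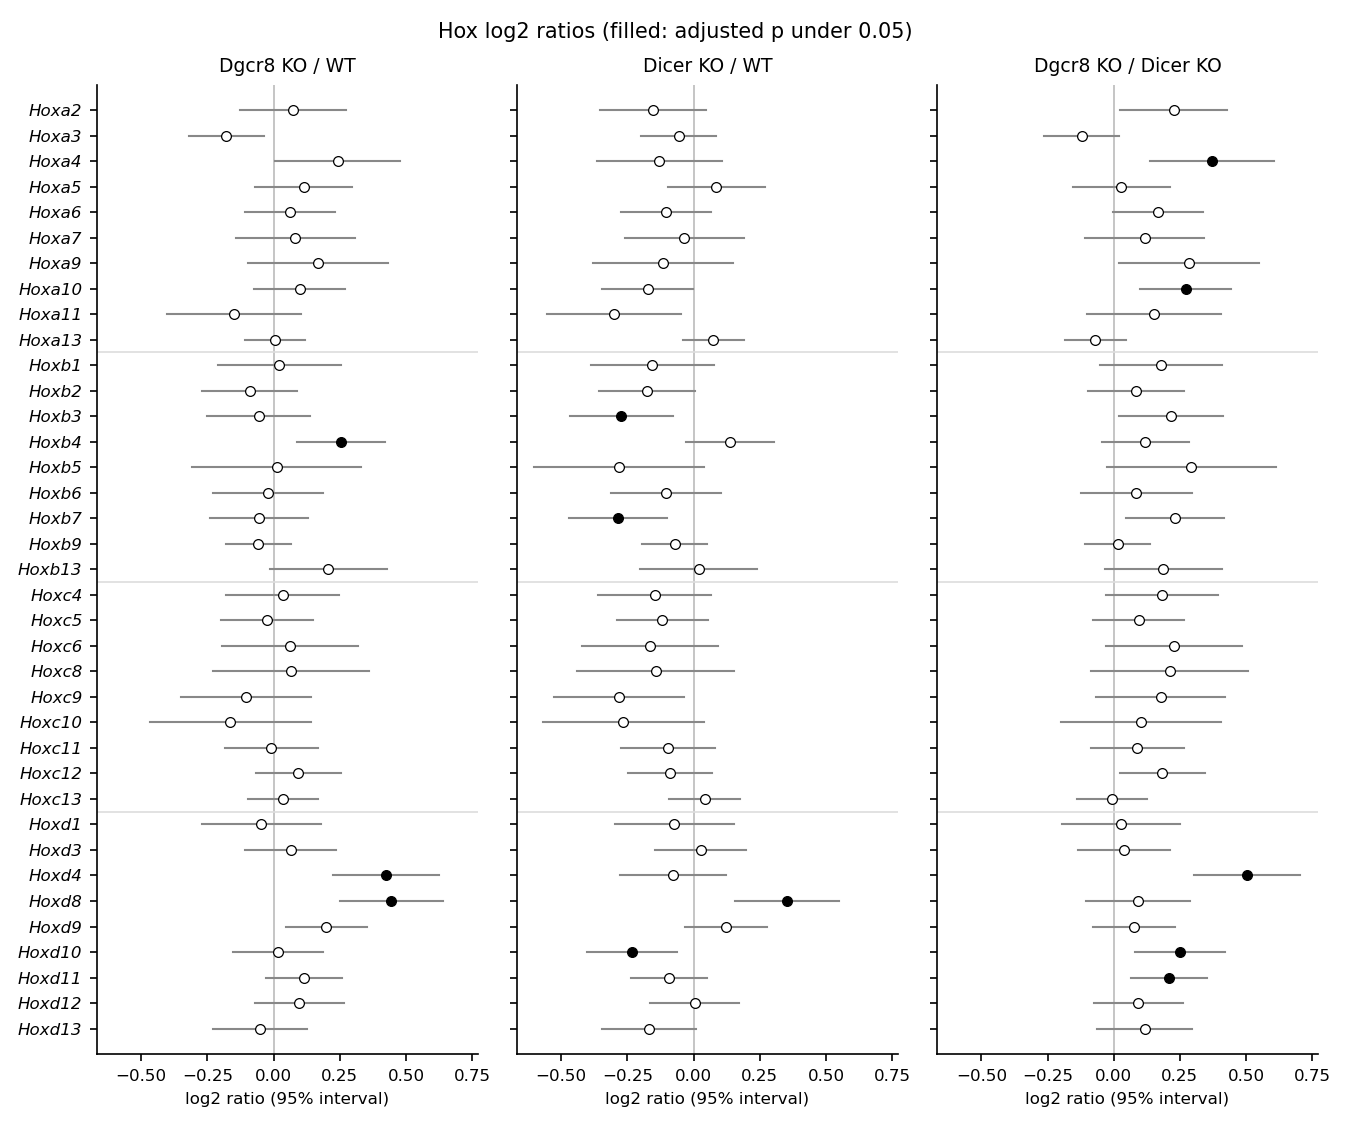
Log2 ratio of each of the 37 Hox genes in the 3 comparisons, with its 95% interval from limma as a line and the clusters set apart by grey lines. Filled points passed an adjusted p of 0.05, and open points did not. In the right panel 34 of the 37 points lie above 0, against 73.1% of the other transcripts at the same range of levels.

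Single arrays moved the whole set. The median deviation of the 37 genes from their own means was 0.12 on WT replicate 1, 0.11 on Dgcr8 KO replicate 1 and 0.08 on Dgcr8 KO replicate 3, and it was -0.14 on Dicer KO replicate 2. The other transcripts at the same range of levels deviated by 0.10, 0.03, 0.04 and -0.05 on these arrays, in the same direction. On Dgcr8 KO replicate 2 the Hox genes deviated by -0.03, unlike the other Dgcr8 KO arrays. Without WT replicate 1 and Dgcr8 KO replicate 2, which stood at the ends of the spread between replicates in earlier results of these data, 9 Hox genes were higher in Dgcr8 KO cells than in WT and 12 were higher in Dgcr8 KO cells than in Dicer KO. Of all 22999 transcripts, 3947 and 3632 were higher. Among arrays of their genotype, the Hox genes deviated most upwards on the first and least on the second. Leaving them out therefore raises the Hox ratios of Dgcr8 KO by the choice of arrays, and these counts are no support for a difference. The part of these array shifts in the calls was not tested.

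**Figure D4:**
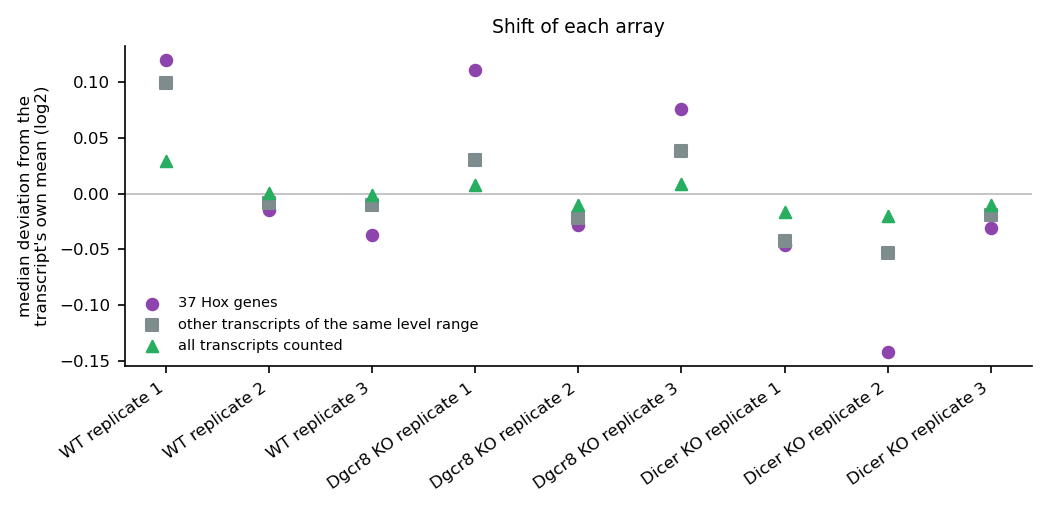
Median deviation, in log2 units, of 3 sets of transcripts from their own mean over the 9 arrays, for each array. The 37 Hox genes (circles) lie highest on WT replicate 1 and lowest on Dicer KO replicate 2, the other transcripts of the same level range (squares) deviate by less in the same direction there, and all transcripts counted (triangles) stay close to 0.

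The Hox clusters also hold miRNA genes, whose precursors have probe sets of their own. miR-10 and miR-196 are families that repress Hox mRNAs, and without the Microprocessor their primary transcripts are not cut, while Dicer KO cells still cut them. These probe sets were tested over all 35557 transcript clusters, of which 11.1%, 12.6% and 7.53% were higher in Dgcr8 KO cells than in WT, in Dicer KO cells than in WT and in Dgcr8 KO cells than in Dicer KO. Among the 326 clusters that hold only miRNA genes, 115 (35.3%), 17 (5.21%) and 125 (38.3%) were higher in these comparisons. The mature sequences are printed from RefSeq with the seed, bases 2 to 8, in capitals, since the seed pairs with the target, and they fall into families by it.
mmu-miR-10a-5p: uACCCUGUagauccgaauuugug
mmu-miR-10b-5p: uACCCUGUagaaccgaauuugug
mmu-miR-196a-5p: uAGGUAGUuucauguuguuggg
mmu-miR-196b-5p: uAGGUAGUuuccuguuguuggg
The arms of miR-10a and miR-10b share the seed ACCCUGU, and those of miR-196a and miR-196b share AGGUAGU.

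Mir10b was higher in Dgcr8 KO cells than in both other genotypes. Its log2 level was 2.85, 3.04 and 3.05 in WT, 3.94, 4.05 and 4.07 in the Dgcr8 mutant and 2.85, 3.03 and 3.03 in the Dicer mutant. The Dgcr8 KO arrays stood clear of the rest, and WT and Dicer KO overlapped. By limma the log2 ratio of Dgcr8 KO to WT was 1.04 (SE 0.0778, adjusted p = 3.96e-05), 2.06-fold, and that to Dicer KO was 1.05 (adjusted p = 8.47e-05), while Dicer KO to WT was -0.01, with a 95% interval from -0.19 to 0.17. Mir10b lies at chr2:74726070-74726137 on the plus strand (GRCm38.p6, RefSeq), inside the RefSeq span of Hoxd4, which was also higher in Dgcr8 KO cells than in both other genotypes, and of Hoxd3, which passed in no comparison. The exon or intron that holds it was not determined here, and whether the probe sets of Hoxd4 and Mir10b read a common transcript was not tested. In the hairpin, capitals mark the mature arms.
Mir10b hairpin: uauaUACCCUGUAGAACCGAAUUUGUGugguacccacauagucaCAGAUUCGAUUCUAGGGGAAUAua

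Of the other precursors, Mir196a-1, of the HoxB cluster, was higher in both mutants than in WT. Its log2 level was 4.46, 4.59 and 4.50 in WT, 5.25, 5.54 and 5.19 in the Dgcr8 mutant and 5.003, 4.91 and 4.99 in the Dicer mutant, and the 3 genotypes did not overlap. The log2 ratio to WT was 0.81 (adjusted p = 0.000358) for Dgcr8 KO and 0.45 (adjusted p = 0.00748) for Dicer KO by limma, and between the mutants it was 0.36 (adjusted p = 0.0313). This last call was lost without WT replicate 3, Dgcr8 KO replicate 1 or any Dicer KO array (adjusted p up to 0.105), under quantile normalization, cyclic loess and median centring (up to 0.124) and in a fit of the 2 genotypes only. Mir10a, inside Hoxb3, Mir615, inside Hoxc5, Mir196a-2 and Mir196b passed in no comparison, with log2 ratios of Dgcr8 KO to WT of -0.19, 0.12, 0.15 and 0.19. The noncoding genes Hoxd3os1, with 2 probe sets, and Hoxaas2 passed in none either.

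**Figure D5:**
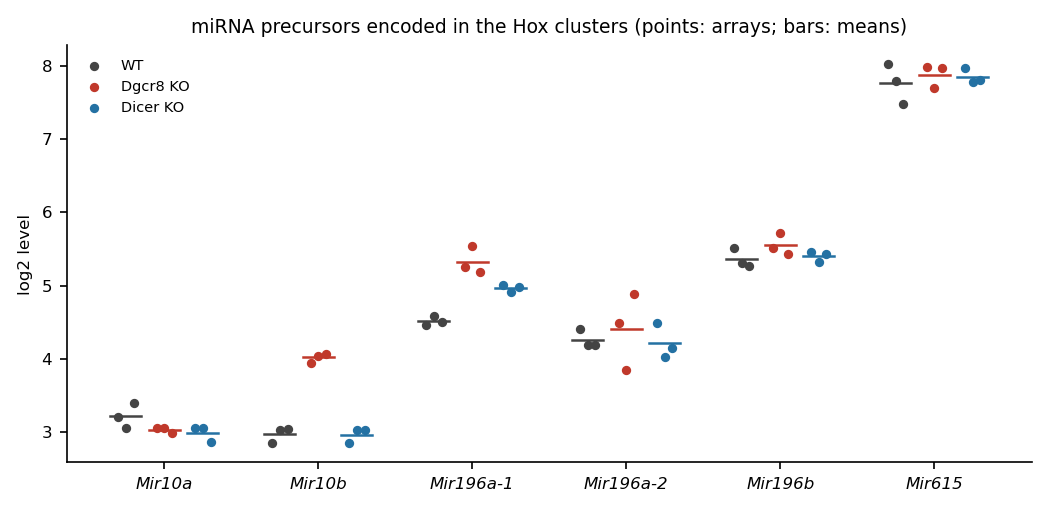
Log2 level of the 6 miRNA precursors encoded in the Hox clusters on the 9 arrays, with WT in grey, Dgcr8 KO in red and Dicer KO in blue, a point for each array and a bar for each mean. Mir10b is near 4.02 in Dgcr8 KO and near 3 in the other genotypes, and Mir196a-1 is lowest in WT and highest in Dgcr8 KO.

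Genes that silence the Hox clusters changed in part. Of 13 probe sets of Polycomb repressive complex 2, which methylates lysine 27 of histone H3, 2 were higher and 6 lower in Dgcr8 KO cells than in WT, 4 higher and 2 lower in Dicer KO, and 0 higher and 4 lower in Dgcr8 KO cells than in Dicer KO. Under quantile normalization and cyclic loess the number lower in Dgcr8 KO cells than in WT was 3, and the number higher was 4 and 3. On the deposited values the shares of the 13 were 15.4% and 46.2%, 30.8% and 15.4%, and 0% and 30.8%. Those of all transcripts were 15.7% and 17.3%, 17.8% and 19.1%, and 11.2% and 13.4%. The catalytic subunit Ezh1 had log2 ratios of 0.59 in Dgcr8 KO cells and 0.72 in Dicer KO, and Aebp2, an accessory subunit, 1.07 and 0.95. Mtf2, which brings the complex to CpG islands, fell by 0.42 in Dgcr8 KO and differed by -0.63 between the mutants, and Eed, the subunit that reads the mark, had a ratio of -0.47 on the log2 scale in Dgcr8 KO cells by 1 of its 2 probe sets and -0.17, not called, by the other. Of 19 probe sets of Polycomb repressive complex 1, which ubiquitinates histone H2A, 5 were higher and 4 lower in Dgcr8 KO cells, 6 higher and 5 lower in Dicer KO, and 4 higher and 4 lower in Dgcr8 KO cells than in Dicer KO, or 1 higher with median centring. In the same order the shares were 26.3% and 21.1%, 31.6% and 26.3%, and 21.1% and 21.1%, beside the same shares of all transcripts. Bmi1, a subunit of the complex, rose by 1.66 and 1.78, and Cbx7, which reads the H3 mark in ES cells, had log2 ratios of -0.46 and -0.67.

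Of 12 probe sets of Trithorax genes, whose products oppose Polycomb, and of H3K27 demethylases, 6 were higher and 1 lower in Dgcr8 KO cells than in WT and 5 higher and 2 lower in Dicer KO, and 7 were higher and 0 lower in Dgcr8 KO cells than in Dicer KO, or 3 higher with median centring. In the same order the shares were 50% and 8.33%, 41.7% and 16.7%, and 58.3% and 0%. They stand beside 15.7% and 17.3%, 17.8% and 19.1%, and 11.2% and 13.4% of all transcripts. Kmt2a, a methyltransferase that keeps Hox genes active, rose by 0.50 and 0.29 relative to WT and was 0.21 higher in Dgcr8 KO cells than in Dicer KO. Several partners of Hox proteins, which bind DNA together with them, rose in both mutants. Of 8 such cofactors, 5 were higher and 1 lower in Dgcr8 KO cells, 4 higher and 1 lower in Dicer KO, and 2 higher and 0 lower in Dgcr8 KO cells than in Dicer KO, among them Meis2 at 2.15 and 1.57, Pknox2 at 1.71 and 1.56 and Pbx3 at 1.01 and 0.84. The shares of the cofactors were 62.5% and 12.5%, 50% and 12.5%, and 25% and 0%, beside the same shares of all transcripts.

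Regulators upstream of Hox genes include the Cdx genes and the retinoic acid pathway. Of 6 Cdx and ParaHox genes, Cdx2 had a ratio of -0.24 on the log2 scale in Dgcr8 KO cells (adjusted p = 0.0476) and Cdx4 of -0.38 in Dicer KO (adjusted p = 0.0263), and Cdx4 was 0.38 higher in Dgcr8 KO cells than in Dicer KO (adjusted p = 0.0376), all by limma, the last call being lost under cyclic loess and median centring. Of 18 genes of the retinoic acid pathway, 2 were higher and 4 lower in Dgcr8 KO cells, 3 higher and 7 lower in Dicer KO, and 3 higher and 1 lower in Dgcr8 KO cells than in Dicer KO. The shares higher than in WT, 11.1% and 16.7%, stand beside 15.7% and 17.8% of all transcripts, and the shares lower, 22.2% and 38.9%, beside 17.3% and 19.1%. Between the mutants 16.7% were higher and 5.56% lower, beside 11.2% and 13.4% of all transcripts. The receptor Rara had log2 ratios of -0.20 and -0.74, the receptor Rarg -0.45 and -0.38, Aldh1a2, an enzyme that makes retinoic acid, rose by 0.97 in Dicer KO, and the binding protein Crabp2 fell by 0.88 there. Of 19 probe sets of genes that flank the clusters, 5 were higher and 2 lower in Dgcr8 KO cells and 7 higher and 6 lower in Dicer KO cells, with Ttll6, beside HoxB, at 1.79 and 1.48 and Skap2, beside HoxA, at 0.55 and 0.83. The lowest ratios of this list were -0.36 in Dgcr8 KO, -0.49 in Dicer KO and -0.74 between the mutants. Between the mutants 4 were higher and 5 lower, with 8, 7 and 0 higher under quantile normalization, cyclic loess and median centring. On the deposited values the shares were 26.3% and 10.5%, 36.8% and 31.6%, and 21.1% and 26.3%. Those of all transcripts were 15.7% and 17.3%, 17.8% and 19.1%, and 11.2% and 13.4%. Evx2, at the end of the HoxD cluster, was not called in any comparison, and Evx1, at the end of HoxA, had a ratio of 0.35 on the log2 scale in Dgcr8 KO cells (adjusted p = 0.0476).

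Other developmental regulators that Polycomb holds silent in ES cells, many of them homeobox genes, were counted beside the Hox genes. Of 65 such genes, 5 were higher and 2 lower in Dgcr8 KO cells than in WT, 6 higher and 11 lower in Dicer KO, and 10 higher and 2 lower in Dgcr8 KO cells than in Dicer KO. In the same order the shares were 7.69% and 3.08%, 9.23% and 16.9%, and 15.4% and 3.08%. Those of all transcripts were 15.7% and 17.3%, 17.8% and 19.1%, and 11.2% and 13.4%. Under quantile normalization, cyclic loess and median centring the number lower in Dicer KO was 5 each time. The median log2 ratios were 0.02, -0.16 and 0.13, beside 0.04, -0.11 and 0.15 for the Hox genes, and 54 of the 65 were above 0 between the mutants, against 34 of 37. These are 83.1% and 91.9%, beside 58.3% of all transcripts and 73.1% of the other transcripts at the Hox genes' range of levels. Vax2 rose by 1.47 and 1.83 in the Dgcr8 and Dicer mutants, and Pax6, an eye and brain regulator, by 0.93 and 0.43. Others of the 65 fell, and the lowest log2 ratios to WT were -1.01 in Dgcr8 KO and -1.11 in Dicer KO.

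Markers of other cell types were counted too. Of 24 markers of fibroblasts and feeder cells, which express Hox genes, 3 were higher and 2 lower in Dgcr8 KO cells, 3 higher and 5 lower in Dicer KO and 8 higher and 1 lower in Dgcr8 KO cells than in Dicer KO. The shares higher than in WT, 12.5% in each mutant, stand beside 15.7% and 17.8% of all transcripts, and the shares lower, 8.33% and 20.8%, beside 17.3% and 19.1%. Between the mutants 33.3% were higher and 4.17% lower, beside 11.2% and 13.4%. The log2 of their summed level was 12.7 on all WT arrays, 13.3 to 13.4 on those of Dgcr8 KO and 12.9 on those of Dicer KO. The brightest genes weigh most in this sum. They were Fn1 in WT and Dicer KO, with means of 11.3 and 11.5, and Vim in Dgcr8 KO, with 12.1. Relative to WT, Vim stood at 2.31 and 1.62 and Acta2 at -2.46 and -2.91, and 19 and 16 of the 24 were not called. Lum was the dimmest, at 3.22 to 3.45 on the arrays. Under cyclic loess and median centring the number lower in Dicer KO was 3. The other lists are given as the counts higher and lower relative to WT, in Dgcr8 KO and then in Dicer KO. Of 12 mesoderm probe sets 1 was higher and 1 lower in Dgcr8 KO cells and 1 higher and 4 lower in Dicer KO cells, the latter becoming 1 or 2 under the 3 scalings. Of 12 neural genes the counts were 3 and 2 and then 3 and 3, of 11 endoderm probe sets 2 and 1 and then 0 and 2, and of 11 trophoblast genes 1 and 5 and then 3 and 3. As shares, mesoderm gave 8.33% and 8.33% and then 8.33% and 33.3%, and neural genes 25% and 16.7% and then 25% and 25%. Endoderm gave 18.2% and 9.09% and then 0% and 18.2%, and trophoblast 9.09% and 45.5% and then 27.3% and 27.3%. All transcripts gave 15.7% and 17.3% and then 17.8% and 19.1%. Between the mutants 0% of the mesoderm probe sets were higher in Dgcr8 KO cells than in Dicer KO and 16.7% lower. Neural genes gave 33.3% and 0%, endoderm 18.2% and 0% and trophoblast 0% and 45.5%, beside 11.2% and 13.4% of all transcripts. The log2 of the summed level on the arrays of WT, Dgcr8 KO and Dicer KO was 10.5 to 10.6, 10.2 and 10.4 for mesoderm, 11.0, 11.4 and 11.0 to 11.1 for neural, 9.48 to 9.62, 9.39 to 9.51 and 9.28 to 9.31 for endoderm and 11.99 to 12.09, 11.4 and 11.9 for trophoblast markers. Of 14 probe sets of ES cell markers, 8 were higher and 1 lower in Dgcr8 KO cells and 8 higher and 3 lower in Dicer KO cells. Their shares were 57.1% and 7.14% and then 57.1% and 21.4%, and between the mutants 28.6% were higher in Dgcr8 KO cells and 35.7% lower. The part of these markers in the Hox levels was not tested.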

How the data were processed

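Total RNA of 3 samples of WT ES cells and of each KO line was hybridised by the authors to 1-colour Affymetrix mouse gene 1.0 ST arrays. The deposited values are log2 levels for 35557 transcript clusters, summarised by the authors with RMA per the methods and GCRMA per the submitters' processing notes, and the difference could not be settled. Scanner files were not used here, so no detection call was made and the number of arrays limits the precision.

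Platform annotation gave 1 symbol to 21789 clusters, several to 1621 and none to 12147. The 22999 counted have a symbol and are neither miRNA-only, mitochondrial nor on chromosome Y. limma 3.58.1 in R 4.3.3 fitted all 9 arrays with a mean for each genotype, without the replicate number. Benjamini-Hochberg adjustment ran over all counted clusters, or over all 35557 for miRNA precursors, and calls used an adjusted p under 0.05. The fit was tested on simulated data. Named genes were the members called, the 2 largest ratios that missed the threshold in each comparison, and in each list called genes of smallest adjusted p. Alternatives were other scalings, filters and thresholds, a rewritten SAM, trend, array weights, fewer arrays and a replicate block. The members and lists were chosen with earlier results of these data known. Sequences and gene spans came from RefSeq (GRCm38.p6). Some items are not reported here.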

Additional observations from a re-analysis of the deposited data

Results flagged for a closer look

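The mutants differed from each other, by limma's direct test of Dgcr8 KO against Dicer KO, in 5 Hox genes and 2 miRNA precursors of the clusters. The log2 ratio was 0.50 for Hoxd4, 0.37 for Hoxa4, 0.27 for Hoxa10, 0.25 for Hoxd10, 0.21 for Hoxd11, 1.05 for Mir10b and 0.36 for Mir196a-1, each higher in Dgcr8 KO. The Hox genes make up 13.5% of the 37, near the 11.2% of all transcripts that were higher. The precursors make up 33.3% of the 6, near the 38.3% of the 326 clusters that hold only miRNA genes. Only the calls of Hoxd4 and Mir10b were kept when any single array was left out. Groups of 3 arrays are too small for a test of single outlying arrays.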

How the results depend on the processing

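The 2 calls each of Hoxd4 and Hoxd8 were kept when any single array was left out, as were those of Mir10b, and no called ratio changed sign under any setting tried. Ratios that were not called did change sign in places, as did the Hoxd median of Dicer KO to WT under cyclic loess (0.01). All counts of Hox genes called fell to 0 when a change of 1.5-fold was also required. The count higher in Dgcr8 KO than in WT was 6 with array weights and 9 without WT replicate 1 and Dgcr8 KO replicate 2 together (median log2 ratio 0.13), and the count lower was 1 under cyclic loess and under median centring. Those 2 arrays were picked from these same data, and leaving them out raises the Hox ratios of Dgcr8 KO by that choice. Of all 22999 transcripts, 3838 were higher in Dgcr8 KO than in WT with array weights and 3947 without those 2 arrays, against 3615. The count lower in Dicer KO than in WT was 1 by SAM, from a fit of 2 genotypes only, under quantile normalization, under median centring and over all 35557 clusters, and 0 under cyclic loess and at an adjusted p under 0.01, and the count higher was 3 and 0 under the last pair. Between the mutants the count higher in Dgcr8 KO was 14 by SAM, 12 without those 2 arrays, 11 with array weights, 3 from 2 genotypes only, under quantile normalization, cyclic loess and limma-trend, 2 with median centring, and 1 over all clusters and at an adjusted p under 0.01, and under cyclic loess 1 was lower. The number higher among all 22999 transcripts rose too, from 2574 to 4494 by SAM, 3632 without those 2 arrays and 3566 with array weights. The count higher in Dgcr8 KO than in both others was 2 with array weights and 4 without those 2 arrays, and 1 was lower than in both under cyclic loess. The count lower in Dicer KO than in both others was 2 with array weights and without the dimmest 25% of transcripts, and 0 by 2 genotypes only, the 3 scalings, limma-trend, all clusters and an adjusted p under 0.01.

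With a replicate block 4 Hox genes were higher in Dgcr8 KO than in WT, 7 were lower in Dicer KO than in WT and 6 were higher in Dgcr8 KO cells than in Dicer KO. Of all 22999 transcripts, 3613, 4458 and 2621 were called in these directions. Deviations of arrays from their genotype means correlated from -0.20 to 0.34 where the replicate number was the same. Where it differed, they correlated from -0.46 to 0.32. With means of only 3 arrays, these values cannot decide whether the numbers pair the samples. Leaving out each array in turn gave 2 to 4 higher and 0 to 1 lower in Dgcr8 KO than in WT, 1 higher and 0 to 3 lower in Dicer KO, 1 to 7 higher in Dgcr8 KO cells than in Dicer KO, 1 to 2 higher in Dgcr8 KO than in both and 0 to 2 lower in Dicer KO than in both. Over all transcripts, median centring moved the calls between the mutants from 2574 higher and 3083 lower to 1787 and 3761. The causes of these changes were not tested. The Hox genes are dim and 3 arrays limit the precision, so a missed threshold shows no equality.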
